A study of Mus musculus with 6 samples.

Results

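The genes described here encode the machinery of MHC class II antigen presentation: H2-Aa, H2-Ab1, H2-Eb1, H2-DMa and H2-DMb1, together with Cd74. They were chosen by name, 6 of the 19361 genes listed over the 6 UMI tables, and all 6 are listed in every table. They were followed in brain myeloid cells of mice, profiled by Drop-seq, a droplet method in which each captured transcript is counted once at its 3′ end through a unique molecular identifier (UMI). Each table holds 1000 cell barcodes. A barcode was called microglial when it held 3 or more UMIs of P2ry12, Tmem119, Siglech and Gpr34, 4 genes typical of microglia, and every remaining barcode is called other. No class II gene enters that rule.

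All mice were female C57BL/6 animals of 2 to 3 months. The metastasis group was made of 2 libraries, 1 brain each, from mice with unmodified Cx3cr1 taken 2 to 3 weeks after E0771 mammary carcinoma cells had been injected into the heart. The naive group was made of 2 libraries, 1 brain each, from uninjected mice. The null library (Cx3cr1-/-) and the heterozygous library (Cx3cr1+/-) each came from 2 pooled brains that bore such metastases, so neither genotype had a naive counterpart. All suspensions were enriched for Cd11b-positive cells on magnetic columns, a step that also retains monocytes, macrophages, dendritic cells, neutrophils and NK cells. Replicate 1 of the metastasis and of the naive group was sequenced on a HiSeq 2500, and the other libraries on a NextSeq 500. Within these groups a replicate was thus a separate brain on a separate sequencer, and brain and sequencer cannot be told apart.

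The libraries held 491621 to 2667099 UMIs and 189 to 785 microglial barcodes, 3074 in all against 2926 other barcodes. The deposited tables of the 4 libraries from unmodified mice carry names that give the opposite group to their labels. The labels are followed below. A swap in both replicates would only turn the sign of metastasis against naive. A swap in a single replicate would also change the fits, their SEs and how far the replicates differ, and was not tested. Cx3cr1, the targeted gene, was at 62.9 CPM (UMIs of a gene per 1000000 UMIs of the barcodes summed) in microglial barcodes of the null library, against 1332 CPM in the heterozygous library. At most 1 barcode sequence was shared between any pair of libraries. Depth was uneven, with a median of 387 to 2241 UMIs per microglial barcode and 304 to 1636 UMIs per other barcode. Metastasis 2 was the shallowest library in both classes and metastasis 1 the deepest. The median share of mitochondrial UMIs ran from 2.96% in metastasis 1 to 20.3% in the heterozygous library. Among barcodes outside the microglial class that carried no list of antigen-presenting cells, an E0771 carcinoma marker list was carried by 87 barcodes of metastasis 1 and by 1 barcode each of metastasis 2, naive 1 and naive 2.

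Class II molecules are cell-surface pairs of an alpha and a beta chain that show peptides to CD4+ T cells. H2-Aa and H2-Ab1 encode the chains of I-A, and H2-Eb1 encodes the beta chain of I-E. Cd74 encodes the invariant chain, which fills the peptide groove during assembly, and H2-DMa and H2-DMb1 encode the H2-M dimer, which exchanges the last fragment of the invariant chain for peptide. Dendritic cells, B cells and many macrophages carry these genes at high level, whereas resting microglia are known for little class II.

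The members other than Cd74 lie in the class II region of chromosome 17 (GENCODE annotation of GRCm38). H2-Aa spans 34282744 to 34287823 on the minus strand. H2-Ab1 spans 34257689 to 34269419, H2-Eb1 34305867 to 34316674, H2-DMa 34119541 to 34139101 and H2-DMb1 34153072 to 34160230, all on the plus strand. They are protein-coding, and the tables give 1 count per gene, with no split by exon or UTR. H2-DMa overlaps Brd2 and other genes of the opposite strand and CR974462.3 on its own strand. H2-Eb1 overlaps Gm20513 of the opposite strand, and H2-DMb1 has a near-identical neighbour, H2-DMb2, so that the counts of H2-DMa, H2-DMb1 and H2-Eb1 are less certain than those of the other members. H2-Ea-ps, annotated as a polymorphic pseudogene, is in none of the tables.

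Class II promoters are known for a shared arrangement of an X box and, closer to the start site, a Y box, which are bound by the RFX complex and by NF-Y and read by the coactivator CIITA. The promoter windows of H2-Aa and H2-Eb1 are shown because both genes encode chains whose level differed between microglial and other barcodes below, and both hold the arrangement. Capitals mark matches to CTNGNAAC, taken here for the X box, and to TGATTGG, taken for the Y box, read 5′ to 3′ on the gene's strand. The sequences are from RefSeq promoters of build GRCm38.p6, chr17:34287857-34287927 on the minus strand for H2-Aa and chr17:34305753-34305822 on the plus strand for H2-Eb1.
H2-Aa: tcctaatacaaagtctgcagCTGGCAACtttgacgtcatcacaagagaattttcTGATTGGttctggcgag
H2-Eb1: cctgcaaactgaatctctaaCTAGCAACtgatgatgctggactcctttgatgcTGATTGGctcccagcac

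The motifs stand 26 bases apart in H2-Aa and 25 bases apart in H2-Eb1, and the Y match ends 43 and 54 bases before the annotated start sites. Of the members, 4 were matched in the promoter table; H2-Ab1 is likewise named only. The window of H2-DMb1 also holds both motifs, 26 bases apart, and neither window of H2-DMa holds either. Among all 32851 promoter windows, which cover 250 bases before to 50 bases after each start, 13.2% hold the X motif and 7.82% the Y motif on either strand. An X motif followed by a Y motif within 10 to 40 bases stands in 28 of them, or 0.0852%. The letters of the motifs were set with these sequences in view, and a match is a description of the letters and not of binding. Cd74, whose promoter is named only, is protein-coding and spans 60803848 to 60812652 on the plus strand of chromosome 18.

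UMIs of the 6 genes were found on most barcodes of every library and in both classes. In microglial barcodes, at least 1 such UMI was carried by 94.7% of 189 in metastasis 1, 66.9% of 329 in metastasis 2, 71.0% of 706 in naive 1, 94.7% of 397 in naive 2, 98.9% of 785 in the null library and 98.1% of 668 in the heterozygous library. In other barcodes the shares were 95.3%, 62.7%, 61.9%, 92.2%, 94.9% and 97.6% in the same order. The shares were lowest in metastasis 2 and naive 1, the libraries with the fewest UMIs per barcode. The usual carrier held few UMIs: the median microglial barcode had 4 UMIs of the 6 genes in metastasis 1, 1 in metastasis 2, 1 in naive 1, 4 in naive 2, 6 in the null library and 6 in the heterozygous library.

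Because a deep barcode is more likely both to pass the microglial rule and to show any gene, the shares were also computed for barcodes thinned to 500 UMIs. On that scale 63.0%, 51.2%, 48.3%, 70.6%, 84.1% and 74.8% of microglial barcodes carried a member, against 67.7%, 63.5%, 60.0%, 81.0%, 83.2% and 81.5% of other barcodes, in the order metastasis 1, metastasis 2, naive 1, naive 2, null and heterozygous. In metastasis 2, 101 microglial and 40 other barcodes were deep enough to enter. The thinned share was lower in microglial barcodes in 5 of 6 libraries, with a mean difference of -7.51 percentage points, and did not pass an exact two-sided paired permutation test over libraries (p = 0.0625, where the smallest possible value is 0.0312). With microglial barcodes called at 2 or at 5 marker UMIs the difference was -7.56 and -12.4 points, lower in microglial barcodes in 6 of 6 libraries (exact permutation p = 0.0312 each), and thinned to 800 UMIs it was -3.98 points (p = 0.0625, exact permutation). Without thinning the mean difference was 3.25 points in the opposite direction (exact permutation p = 0.0938).

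The genes were also taken singly. After thinning, H2-Ab1 averaged 28.6% of microglial and 35.4% of other barcodes, and H2-Aa 21.6% and 25.5%, each lower in microglial barcodes in 6 of 6 libraries (exact permutation p = 0.0312, adjusted over the 6 genes 0.0938). Cd74 averaged 30.3% and 35.7%, and H2-Eb1 20.9% and 23.6%. H2-DMa averaged 8.61% of microglial and 7.50% of other barcodes and was higher in microglial barcodes in 5 of 6 libraries (exact permutation p = 0.0938, adjusted 0.141). H2-DMb1 was within 0.242 points between the classes on average (4.93% and 4.68%). None of these differences passed after adjustment over the 6 genes.

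Droplets also take up free RNA, so the shares were set beside those of cells not known for class II. Barcodes were taken that carried 3 or more UMIs of an endothelial, NK cell or E0771 carcinoma marker list and neither the microglial rule nor a list of dendritic cells, B cells, border-associated macrophages or monocytes and macrophages. In metastasis 1, 90 of 100 such barcodes (90.0%) carried a UMI of the 6 genes, at 926 CPM and a median depth of 1875 UMIs. In naive 2, 24 of 27 (88.9%) did so, at 1428 CPM and a median depth of 1082 UMIs. Thinned to 500 UMIs their shares were 50.2% and 59.9%, against 63.0% and 70.6% for the microglial barcodes of the same libraries. The remaining libraries held 2 to 6 such barcodes each, which is too few to set a background. A UMI of the 6 genes was thus common on barcodes of these other cells too. Their pooled thinned share was lower than that of microglial barcodes in both libraries, but in metastasis 1 the lists differed. There the 87 carcinoma barcodes stood at 48.6%, below the microglial barcodes, and the 13 NK barcodes at 65.4%, above them. The 26 endothelial barcodes of naive 2 stood at 60.7%. Other barcodes with a neutrophil marker list, not pooled here, had higher thinned shares than microglial barcodes in both libraries (92.9% for 4 barcodes in naive 2). The order thus depended on the cells taken.

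Few barcodes held much of the microglial counts. The 3 microglial barcodes with the most UMIs of the 6 genes held 24.8% of all such microglial UMIs in metastasis 1, 41.6% in metastasis 2, 36.3% in naive 1, 29.2% in naive 2, 16.5% in the null library and 25.1% in the heterozygous library. The same barcodes held 6.94%, 4.47%, 1.76%, 4.74%, 1.23% and 2.20% of all microglial UMIs. Reaching 50% of the UMIs of the 6 genes took 12, 13, 5, 7, 105 and 13 barcodes in that order. The null library stood apart from the others in this count.

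**Figure D1:**
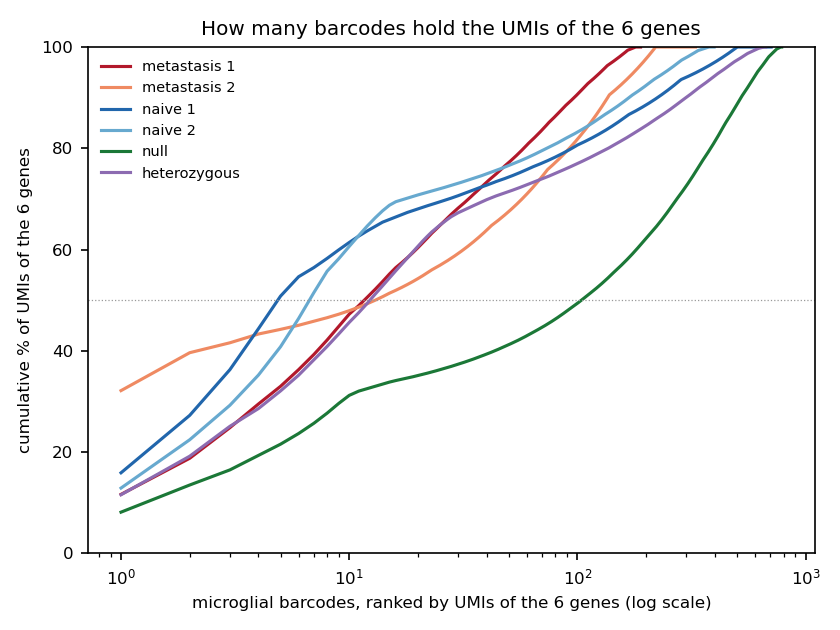
Cumulative share of the UMIs of the 6 genes (y axis, percent) over microglial barcodes ranked by those UMIs (x axis, log scale), with 1 line per library; the dotted line marks 50%. The lines of metastasis 1, metastasis 2, naive 1, naive 2 and the heterozygous library cross it between 5 and 13 barcodes, and that of the null library at 105.

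In single microglial barcodes the 6 genes reached up to 12.5% of all UMIs. The highest microglial barcode of the heterozygous library held 1465 UMIs of the 6 genes among 21157, or 6.92%, and the second held 964 among 7691. In naive 1 the second barcode held 382 among 3574 (10.7%) and in the null library the first held 603 among 7541 (8.0%). In metastasis 1 the top 3 barcodes were less extreme, with 237 UMIs among 14048 (1.69%), 145 among 6444 (2.25%) and 123 among 22533 (0.546%). The last of these also held 34 UMIs of the carcinoma list. No doublet caller was run.

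To separate these barcodes from the rest, a barcode was named class II-high when the 6 genes made up at least 1% of its UMIs and at least 10 UMIs, a limit set after the data were seen. It picks barcodes by the very genes described, so what follows on their class II level is a description without a test. There were 8 class II-high barcodes among the microglial barcodes of metastasis 1, 3 in metastasis 2, 13 in naive 1, 15 in naive 2, 18 in the null library and 30 in the heterozygous library, 87 of 3074 in all. They held 35.6%, 41.4%, 63.6%, 63.3%, 31.4% and 66.2% of the microglial UMIs of the 6 genes, and 7.56%, 2.74%, 3.93%, 11.0%, 3.90% and 11.9% of all microglial UMIs. Other barcodes held 101 class II-high barcodes of 2926.

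Most class II-high microglial barcodes carried the chains together with Cd74; they were deeper and were picked for 10 or more of these UMIs. H2-Aa, H2-Ab1, H2-Eb1 and Cd74 were all present on 8 of 8 in metastasis 1, 3 of 3 in metastasis 2, 13 of 13 in naive 1, 15 of 15 in naive 2, 17 of 18 in the null library and 29 of 30 in the heterozygous library. In the remaining microglial barcodes all 4 were present together on 41 of 181, 1 of 326, 16 of 693, 48 of 382, 185 of 767 and 171 of 638. H2-DMa was present on 6 of 8, 2 of 3, 9 of 13, 12 of 15, 12 of 18 and 28 of 30 class II-high microglial barcodes, and H2-DMb1 on 6, 0, 10, 13, 10 and 23 of them.

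These barcodes differed in other genes too. A marker list of dendritic cells, B cells, border-associated macrophages or monocytes and macrophages was carried, at 3 or more UMIs, by 64 of the 87 class II-high microglial barcodes (73.6%) and by 306 of the 2987 remaining ones (10.2%). They were deeper, with library medians of 1484 to 7390 UMIs against 386 to 2161 UMIs, which by itself raises the chance of passing 3 UMIs. Summed levels do not depend on that cutoff. The border-associated macrophage list (6 markers, 3 to 6 detected) ranged from 347 to 5996 CPM in class II-high barcodes and from 160 to 615 CPM in the rest, and was higher in the class II-high barcodes of 6 of 6 libraries. The highest value, in metastasis 2, rests on 44 UMIs, 42 of them on 1 barcode, and the next library stood at 1036 CPM. The monocyte and macrophage list (7 markers, 1 to 6 detected) ranged from 273 to 4945 CPM against 73.0 to 1810 CPM and was higher in 5 of 6 libraries, with metastasis 1 as the exception. Chil3, one of its markers, was at 0 in both sets in all 6 libraries. The dendritic cell list (10 markers, 0 to 7 detected) was likewise higher in 5 of 6 libraries, at 0 to 1134 CPM against 42.2 to 120 CPM, and the exception was metastasis 2. B cell markers were at 0 to 49.3 CPM in class II-high barcodes and at 6.98 to 43.1 CPM in the rest. Cd79a and Ms4a1 were at 0 in the class II-high barcodes of 6 libraries and in the remaining barcodes of 5 libraries each.

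The 4 microglial genes of the rule summed to 1642 to 2761 CPM in class II-high and 1577 to 8265 CPM in the remaining microglial barcodes over the 6 libraries. The rule asks 3 UMIs of every microglial barcode, which sets a higher CPM in shallow barcodes, so no difference is read from these levels. The part that mixed droplets have in the class II-high barcodes was not tested.

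**Figure D2:**
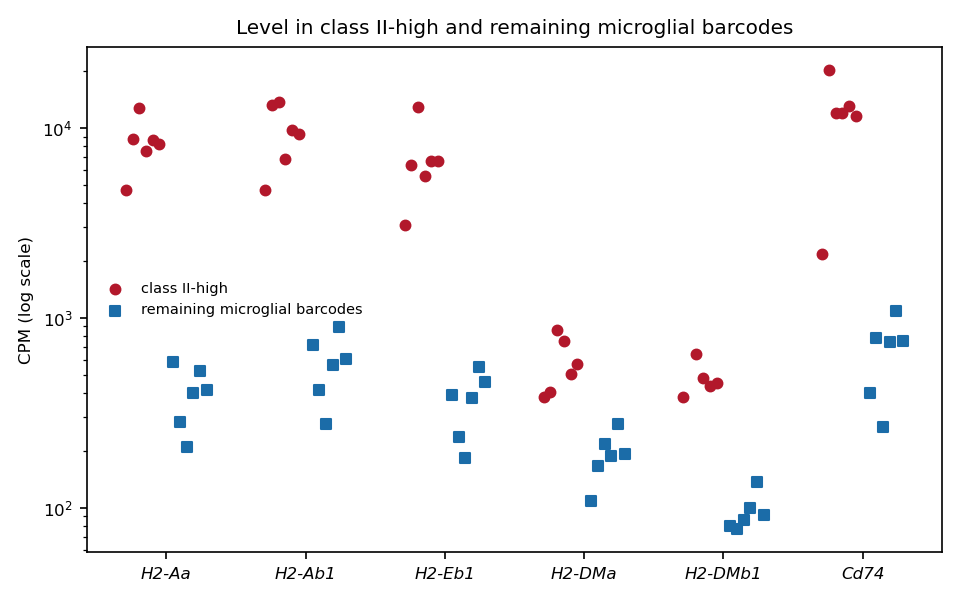
Level of each gene (CPM, log scale) in class II-high microglial barcodes (circles) and in the remaining microglial barcodes (squares), 1 point per library, in the order metastasis 1, metastasis 2, naive 1, naive 2, null and heterozygous from left to right in each cluster. The 2 sets lie far apart for H2-Aa, H2-Ab1, H2-Eb1 and Cd74 and close together for H2-DMa; H2-DMb1 had 0 UMIs in the 3 class II-high barcodes of metastasis 2, which is not drawn.

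The H2-M genes were the least concentrated of the set. H2-DMa in class II-high barcodes was 3.55, 2.48, 4.0, 4.03, 1.84 and 2.97 times its level in the remaining microglial barcodes, in the order metastasis 1, metastasis 2, naive 1, naive 2, null and heterozygous. H2-DMb1 was 4.78, 7.48, 4.83, 3.21 and 4.93 times as high in the same order without metastasis 2, whose class II-high barcodes held 0 of its 20 UMIs. H2-Aa, in contrast, was 8.05, 30.7, 61.5, 18.9, 16.4 and 19.6 times as high. The corresponding range was 6.57 to 49.6 times for H2-Ab1, 7.91 to 70.4 times for H2-Eb1 and 5.42 to 44.9 times for Cd74.

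The mixture of transcripts differed in the same sense. H2-DMa made up 2.48% of the UMIs of the 6 genes in class II-high and 4.74% in the remaining microglial barcodes of metastasis 1. The shares were 0.836% and 8.45% in metastasis 2, 1.63% and 17.5% in naive 1, 2.26% and 7.84% in naive 2, 1.29% and 7.93% in the null library, and 1.55% and 7.60% in the heterozygous library. H2-DMa had the smaller share in class II-high barcodes in each of the 6 libraries. These barcodes were picked on the summed UMIs, of which H2-DMa was a small part. Its smaller share, like its smaller ratios above, can follow from that choice and is a description only. In the remaining microglial barcodes of naive 1, H2-DMa had 214 UMIs, on 142 of 693 barcodes, and H2-Aa 206 UMIs, on 139 barcodes. The top 3 barcodes for H2-DMa held 7.85% to 22.1% of its microglial UMIs over the 6 libraries, against 21.5% to 47.1% for H2-Aa.

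Set against the pooled endothelial, NK and carcinoma barcodes, the remaining microglial barcodes stood higher in metastasis 1 and naive 2. In metastasis 1 the 6 genes summed to 2283 CPM in the 181 remaining microglial barcodes and 926 CPM in the 100 endothelial, NK or carcinoma barcodes, a log2 ratio of 1.30 (95% counting interval 1.14 to 1.47). In naive 2 they summed to 2379 CPM in 382 and 1428 CPM in 27 barcodes, a log2 ratio of 0.74 (0.39 to 1.11). The point ratio was highest for H2-DMa, at 2.02 (1.09 to 3.10) in metastasis 1 and 3.15 (0.65 to 8.46) in naive 2, where only 1 UMI lay in the comparison barcodes. Cd74 had a ratio of 1.54 (1.12 to 1.99) in metastasis 1 and of 0.40 (-0.15 to 1.01) in naive 2. H2-Ab1 likewise had an interval above 0 in metastasis 1 (0.87 to 1.44) and one that included 0 in naive 2 (-0.16 to 1.25). The comparison barcodes carried no list of antigen-presenting cells, whereas 79 of 181 remaining microglial barcodes in metastasis 1 and 32 of 382 in naive 2 did, most often that of monocytes and macrophages (1810 and 490 CPM). Without those barcodes the summed ratio was 1.25 (1.05 to 1.45) in metastasis 1 and 0.59 (0.24 to 0.96) in naive 2. In naive 2, only H2-DMa among the single genes then had an interval above 0 (0.60 to 8.42). By list, metastasis 1 held 13 NK barcodes at 2273 CPM (1676 to 3014) and 87 carcinoma barcodes at 859 CPM. The neutrophil list was not used for the comparison. Other barcodes that carried it and no antigen-presenting list stood at 3755 CPM in metastasis 1 and 6842 CPM in naive 2. These were 7 barcodes, 1 of them class II-high, and 4 barcodes. The order thus depended on the cells taken for comparison. These are single libraries, and the intervals cover counting error only.

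Levels per library, over all barcodes of a class, are given next. In microglial barcodes H2-Aa was at 893, 515, 701, 1188, 841 and 1346 CPM in metastasis 1, metastasis 2, naive 1, naive 2, the null library and the heterozygous library. In other barcodes it was at 1084, 724, 1139, 1996, 840 and 1489 CPM. Metastasis 2 was lowest in both classes, the heterozygous library highest in microglial barcodes and naive 2 highest in other barcodes.

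H2-Eb1 followed the same order of libraries at both ends, at 595, 403, 684, 951, 787 and 1200 CPM in microglial and 754, 679, 1108, 1839, 878 and 1265 CPM in other barcodes. H2-Ab1, the I-A beta chain, was at 1024, 766, 804, 1254, 1238 and 1637 CPM in microglial and 1240, 826, 1224, 2479, 1395 and 1734 CPM in other barcodes. The level was lower in microglial than in other barcodes in 6 of 6 libraries for H2-Ab1 and H2-Eb1 and in 5 of 6 for H2-Aa, whose classes lay at 841 and 840 CPM in the null library.

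Cd74 was at 535, 1311, 724, 1983, 1555 and 2037 CPM in microglial and 507, 1733, 1097, 3075, 1458 and 2021 CPM in other barcodes. Its lowest library was metastasis 1 in both classes, unlike H2-Aa, H2-Ab1 and H2-Eb1, and both HiSeq 2500 libraries lay below the other 4. H2-DMa was at 129, 172, 241, 249, 284 and 237 CPM in microglial and 99.7, 219, 185, 211, 218 and 162 CPM in other barcodes. H2-DMb1 was at 103, 74.7, 107, 142, 148 and 134 CPM in microglial and 103, 58.1, 121, 148, 126 and 105 CPM in other barcodes. For the H2-M genes the null library was the highest in microglial barcodes. Neighbouring libraries in these orders often did not separate: the counting intervals of H2-DMb1 in microglial barcodes overlapped among naive 2, the null library and the heterozygous library.

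**Figure D3:**
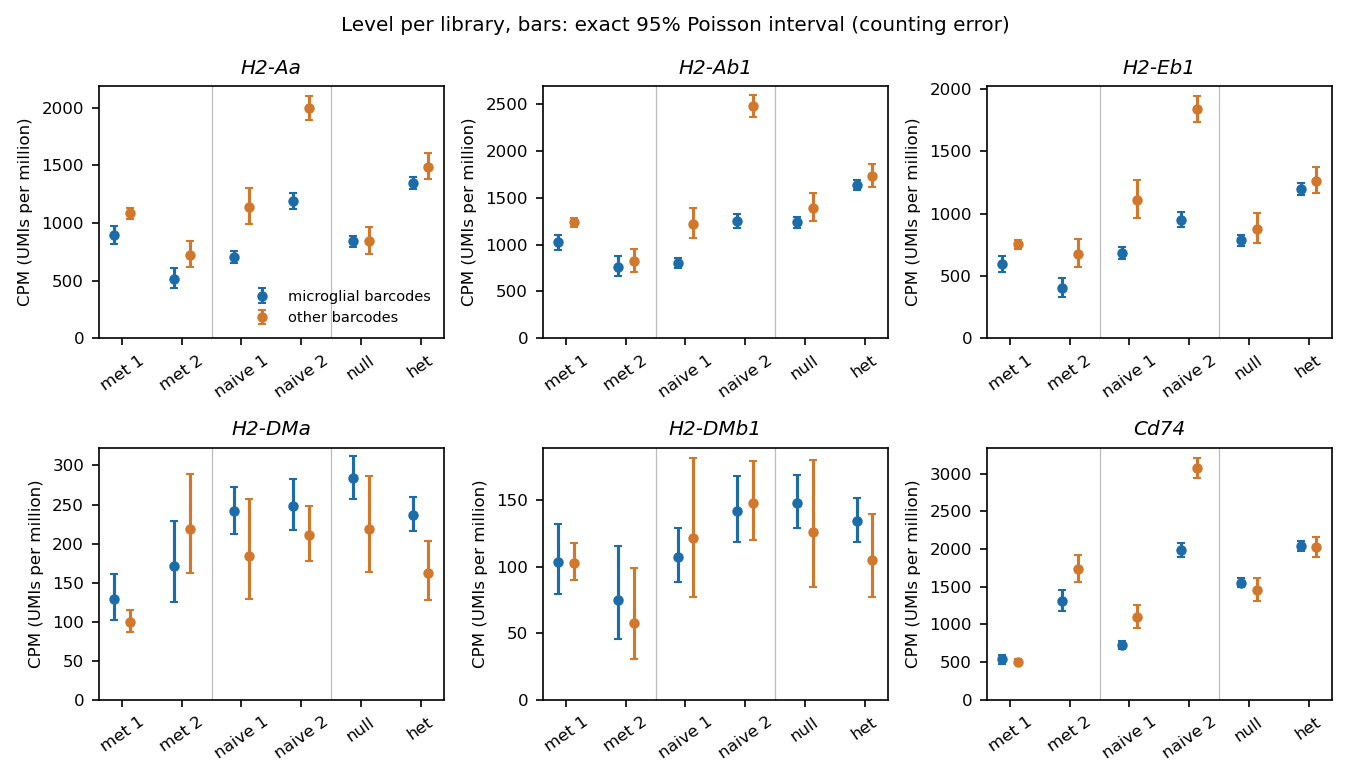
Level of each gene (y axis, CPM) per library (x axis; met, metastasis; het, heterozygous) in microglial barcodes (blue) and other barcodes (orange), with exact 95% Poisson intervals. The orange points of naive 2 are the highest for H2-Aa, H2-Ab1, H2-Eb1 and Cd74, whereas the classes lie close together for H2-DMb1.

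Microglial barcodes were compared with other barcodes of the same library in a fit over all 12 sums with library as a term. H2-Aa, H2-Ab1 and H2-Eb1 were lower in microglial barcodes, with log2 changes of -0.43 (SE 0.11), -0.42 (SE 0.11) and -0.53 (SE 0.11) and adjusted p of 0.0107, 0.0189 and 0.00222 in edgeR's quasi-likelihood test. Of 7498 genes tested, 4.39% passed, 1.87% higher and 2.52% lower in microglial barcodes. Cd74 (-0.28, SE 0.11, adjusted p = 0.161), H2-DMa (0.25, SE 0.13, adjusted p = 0.347) and H2-DMb1 (0.05, SE 0.14, adjusted p = 0.928) did not pass in edgeR. The call of all 3 chains rested on naive 2, since without that library the changes were -0.36, -0.30 and -0.43 with adjusted p of 0.149, 0.272 and 0.0581. Without naive 1 only H2-Eb1 passed, and without the heterozygous library H2-Ab1 did not (edgeR adjusted p = 0.0529). Other barcodes hold an unknown mixture of cells, including microglia with too few UMIs to be called.

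The fit was repeated with class II-high barcodes left out of both classes. The log2 changes were then -0.48 (SE 0.12) for H2-Aa, -0.49 (SE 0.12) for H2-Ab1, -0.51 (SE 0.13) for H2-Eb1 and 0.48 (SE 0.15) for H2-DMa. The barcodes left out were picked by the UMIs of these same genes, so these values are a description without a test. Cd74 passed at -1.14 (edgeR adjusted p = 2.78e-05) when microglial barcodes that carried another antigen-presenting list were left out, a step that took no barcode from the other class.

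Barcodes on either side of the limit of 3 UMIs were also compared, as a description. Barcodes with 3 UMIs of the 4 microglial genes, just inside the limit, had the 6 genes at 2101, 8629, 6272, 3721, 7977 and 9001 CPM in the order metastasis 1, metastasis 2, naive 1, naive 2, null and heterozygous. Those with 2 UMIs, just outside, had 2433, 3505, 1746, 5227, 5286 and 7362 CPM. The level was higher just inside in 4 of 6 libraries. Single barcodes carried part of this: the metastasis 2 barcode with 279 UMIs of the 6 genes and the naive 1 barcode with 382 each had 3 marker UMIs.

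Beyond the 6 genes, a list of 27 genes of the class II pathway was read in the same fit; 23 of them are in the tables and 19 could be tested. Of these, 4 were higher in microglial barcodes, 0 were lower and 15 did not pass, and their median log2 change was 0.14 against -0.03 over all genes. In edgeR, the 4 were Ctss (0.51, SE 0.10, adjusted p = 0.000676), Lgmn (0.44, SE 0.10, adjusted p = 0.0029), Ctsl (0.53, SE 0.11, adjusted p = 0.00258) and Cd83 (0.45, SE 0.11, adjusted p = 0.00848). Ctss and Ctsl encode cathepsins and Lgmn encodes legumain, proteases that cut antigens and the invariant chain, and Cd83 encodes a membrane protein that stabilises class II at the surface. These 4 genes were higher in microglial barcodes, where the class II chains were lower.

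Of the regulators, Ciita held 74 UMIs over all barcodes of the 6 libraries and Rfxank 92, too few to give levels. Rfx5, a subunit of the RFX complex, was at -0.05 (SE 0.29) and Nfya, a subunit of NF-Y, at 0.45 (SE 0.23) in microglial against other barcodes, and neither passed (edgeR adjusted p = 0.971 and 0.353). The modulators of H2-M, H2-Oa (0.23, SE 0.24) and H2-Ob (0.78, SE 0.32), did not pass either (edgeR adjusted p = 0.737 and 0.189). H2-Oa was nonetheless detected in microglial barcodes of every library, at 6.45, 33.6, 43.6, 38.1, 42.6 and 51.0 CPM.

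Metastasis was set against naive to ask whether class II levels differ around brain metastases. In microglial barcodes no member passed, and neither did any other gene: 0% of 8123 genes were called by edgeR, 111 had an unadjusted p under 0.05, and DESeq2 called 0. The 6 log2 changes were all below 0, at -0.52 (SE 0.53) for H2-Aa, -0.29 (SE 0.51) for H2-Ab1, -0.81 (SE 0.49) for H2-Eb1, -0.80 (SE 0.45) for H2-DMa, -0.58 (SE 0.42) for H2-DMb1 and -0.58 (SE 0.72) for Cd74, each with an adjusted p of 0.9996. Their median was -0.58, against 0.009 over all genes. The SEs are close to the size of the changes, with 2 libraries in each group.

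The share of mitochondrial UMIs moved with the groups, with library medians of 2.96% and 3.60% in metastasis 1 and 2, against 8.64% and 19.3% in naive 1 and 2, and its part in the levels of either class was not tested. The replicates did not give the same answer. In replicate 1, on the HiSeq 2500, the 6 genes summed to 3279 CPM in metastasis and 3261 CPM in naive microglial barcodes, a log2 ratio of 0.01 (95% counting interval -0.07 to 0.09). In replicate 2, on the NextSeq 500, they summed to 3242 CPM in metastasis and 5767 CPM in naive, a log2 ratio of -0.83 (-0.94 to -0.73). The median log2 ratio of all genes was 0.30 in replicate 1 and -0.05 in replicate 2. H2-Aa had a ratio of 0.35 in replicate 1 and -1.20 in replicate 2, and H2-Ab1 0.35 and -0.71. H2-Eb1 (-0.20 and -1.24), H2-DMa (-0.90 and -0.53), H2-DMb1 (-0.06 and -0.92) and Cd74 (-0.44 and -0.60) were below 0 in both.

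Without class II-high barcodes the remaining microglial barcodes of metastasis held the 6 genes at 2283 CPM in replicate 1 and 1955 CPM in replicate 2, against 1235 and 2379 CPM in naive. The log2 ratio was then 0.89 (0.77 to 1.01) in replicate 1 and -0.28 (-0.43 to -0.14) in replicate 2. Replicate 1 showed H2-Aa at 1.49 (1.23 to 1.75), H2-Ab1 at 1.38 (1.16 to 1.61) and H2-Eb1 at 1.09 (0.80 to 1.38), beside H2-DMa at -0.996 (-1.43 to -0.58). In replicate 2 the same 3 chains were at -0.49, -0.44 and -0.69, each with an interval below 0. The edgeR median of the 6 genes turned to 0.13 in this setting, and 0 genes were called. The barcodes left out were picked by the UMIs of these same genes, and the part of that choice in the ratios was not tested. The monocyte and macrophage list moved with replicate 1: it stood at 1810 CPM in the remaining microglial barcodes of metastasis 1 and 107 CPM in those of naive 1, with 6 and 5 of its 7 markers detected, and at 73.0 and 490 CPM in metastasis 2 and naive 2, with 4 and 6 detected. Its part in the levels was not tested.

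**Figure D4:**
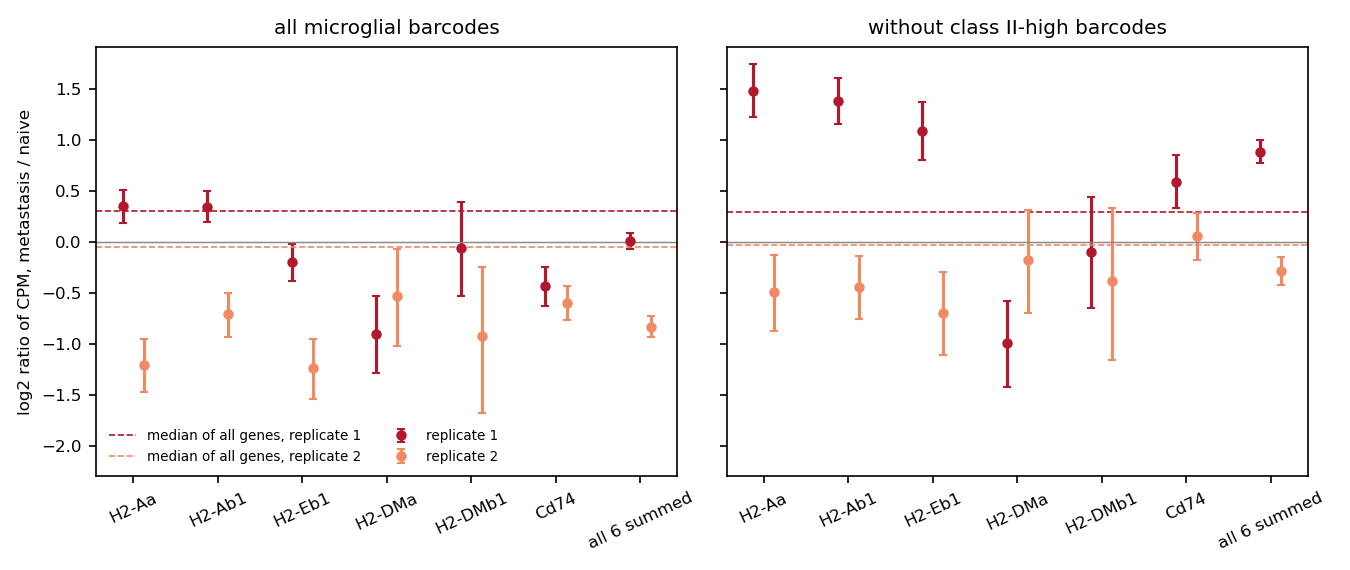
Log2 ratio of CPM, metastasis over naive, within replicate 1 (dark red) and replicate 2 (orange), for all microglial barcodes (left) and without class II-high barcodes (right); bars are 95% counting intervals and dashed lines the median of all genes. For the 6 genes summed, replicate 1 lies at 0.01 on the left and 0.89 on the right, and replicate 2 at -0.83 and -0.28.

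Other barcodes showed the same lack of calls. edgeR called 0% of 6677 genes (71 at an unadjusted p under 0.05), and DESeq2 called 1, which was not a member. The 6 log2 changes ran from -1.17 (H2-Eb1, SE 0.66) to -0.47 (H2-DMa, SE 0.66), each with an edgeR adjusted p of 0.9998. Summed, the genes were at 3787 and 4238 CPM in metastasis 1 and 2, against 4874 and 9747 CPM in naive 1 and 2. Both metastasis libraries lay below both naive libraries, with log2 ratios of -0.36 in replicate 1 and -1.20 in replicate 2. Without class II-high barcodes, 60 of 811 and 4 of 671 in metastasis 1 and 2 against 3 of 294 and 19 of 603 in naive 1 and 2, the edgeR median of the 6 genes was -0.01. The sums were then 2002 and 3737 CPM in metastasis 1 and 2, against 1738 and 3146 CPM in naive 1 and 2, with log2 ratios of 0.20 (0.04 to 0.37) in replicate 1 and 0.25 (0.13 to 0.37) in replicate 2. The median log2 ratio of all genes in that setting was 0.65 in replicate 1 and 0.05 in replicate 2.

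The wider pathway gave no call in either class. None of the 20 listed genes tested in microglial barcodes or of the 17 tested in other barcodes passed in edgeR, and their median log2 changes were -0.15 and 0.02. In microglial barcodes H2-DMb2, the neighbour of H2-DMb1, was at -1.58 (SE 0.71, edgeR adjusted p = 0.9996). March1, which encodes a ubiquitin ligase that removes class II from the surface, was at -0.80 (SE 0.56), and Cd86, a costimulatory ligand, at -0.46 (SE 0.45).

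The null library was set against the heterozygous library to see whether loss of the fractalkine receptor Cx3cr1 goes with another class II level in metastasis-bearing brains. With 1 library each there is no test, and ratios describe these libraries. In microglial barcodes the 6 genes summed to 4853 CPM in null and 6590 CPM in heterozygous, a log2 ratio of -0.44 (95% counting interval -0.48 to -0.40). The ratio was -0.68 for H2-Aa (-0.78 to -0.58), -0.61 for H2-Eb1 (-0.71 to -0.51), -0.40 for H2-Ab1 (-0.49 to -0.32) and -0.39 for Cd74 (-0.46 to -0.32). The H2-M genes were not lower, with H2-DMa at 0.26 (0.07 to 0.45) and H2-DMb1 at 0.14 (-0.12 to 0.40). No member was past 2-fold in either direction. Of 7826 genes 3.22% were, with 1.99% past 2-fold and lower in null. The median ratio of all these genes was -0.06.

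The order of the genotypes turned round when class II-high barcodes were set aside. The 18 class II-high barcodes of the null library held the 6 genes at 39055 CPM and the 30 of the heterozygous library at 36730 CPM, a log2 ratio of 0.09 (0.02 to 0.16). In the remaining barcodes, 767 null and 638 heterozygous, the level was 3466 CPM in null and 2526 CPM in heterozygous, a log2 ratio of 0.46 (0.40 to 0.52). All 6 genes were then higher in null: H2-Ab1 at 0.55, Cd74 at 0.53, H2-DMb1 at 0.57, H2-DMa at 0.52, H2-Aa at 0.33 and H2-Eb1 at 0.25, each with a counting interval above 0. The sum was thus higher in null in either part, and the lower total went with the share of UMIs in class II-high barcodes, 3.90% in null and 11.9% in heterozygous.

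**Figure D5:**
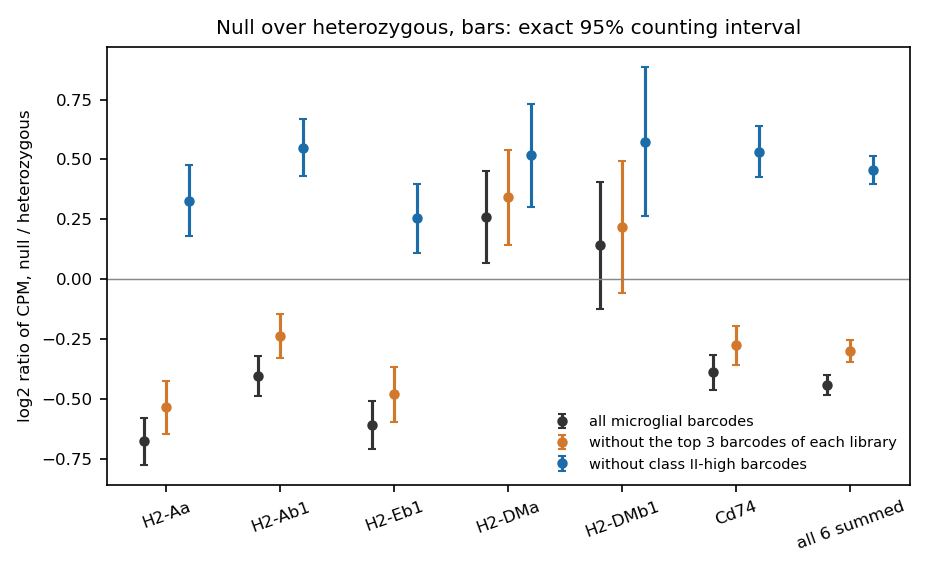
Log2 ratio of CPM, null over heterozygous, in microglial barcodes (y axis) for each gene and their sum, with exact 95% counting intervals, for all barcodes (black), without the 3 barcodes richest in the 6 genes per library (orange) and without class II-high barcodes (blue). H2-Aa, H2-Ab1, H2-Eb1, Cd74 and the sum lie below 0 in black and above 0 in blue.

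The sum also turned, to 0.22 (0.16 to 0.29), without microglial barcodes that carried markers of other antigen-presenting cells. There 4 of the 6 genes had a counting interval above 0. H2-Aa at 0.04 (-0.11 to 0.19) and H2-Eb1 at 0.07 (-0.08 to 0.22) did not. Leaving out the top 3 barcodes of each library left the sum at -0.30. In microglial barcodes that were not class II-high, the monocyte and macrophage list stood at 770 CPM in null and 641 CPM in heterozygous. Of its 7 markers, 6 were detected in each. The border-associated macrophage list stood at 160 and 271 CPM, with 6 of 6 in each. The neutrophil list stood at 933 CPM in null and 362 CPM in heterozygous, on 9 and 34 barcodes at 3 or more UMIs, the NK cell list at 83.9 and 34.9 CPM and the endothelial list at 313 and 457 CPM. Their part in the ratio was not tested. The thinned share of microglial barcodes with any member was 84.1% in null and 74.8% in heterozygous, and null was the highest of the 6 libraries on this measure for each of the 6 genes.

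In other barcodes the sum was at 4916 CPM in null and 6777 CPM in heterozygous, a log2 ratio of -0.46 (-0.56 to -0.37). There too no member was past 2-fold. Of 2551 genes 4.08% were, with 2.94% past 2-fold and lower in null. Without class II-high barcodes the levels were 3788 CPM in null and 3286 CPM in heterozygous, a log2 ratio of 0.21 (0.08 to 0.33). H2-Aa moved from -0.82 to -0.01 (-0.32 to 0.29) and H2-Eb1 from -0.53 to -0.06 (-0.38 to 0.24), so neither turned above 0.

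The genes whose level most resembled the sum of the 6 members were ranked over the 12 sums of 6 libraries and 2 classes, among 6950 genes with 200 or more UMIs, by Pearson's r of log2(CPM + 10). The closest genes that are no members were Akap12 (0.97), Pcp4l1 (0.92), Vtn (0.92), Igfbp7 (0.91), Ptn (0.91), Mbp (0.91), Pik3c2a (0.91) and Epas1 (0.91). Among members, H2-Eb1 ranked 2 (0.93), H2-Ab1 6 (0.91), H2-Aa 27 (0.87), Cd74 65 (0.82), H2-DMb1 582 (0.56) and H2-DMa 1647 (0.33), with each gene a part of its own reference. The 12 sums share libraries, so these values are a description without a test. The H2-M genes were the least like the sum among the 6. They also made up the least of it, with 2055 UMIs for H2-DMa and 1238 for H2-DMb1, against 9525 to 14574 for the other members. The part of that weight in their ranks was not tested.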

How the data were processed

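The authors deposited 1 table of UMI counts per library, with genes in rows and cell barcodes in columns. Per the submitters' processing notes, STAR, Seurat and mm10 were used. Not given in the sources used here are versions, the counting settings and the choice of the 1000 barcodes of each table. Counts were used as deposited, with all barcodes kept, and no cell type annotation or doublet call was used.

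Barcodes were split by the microglial rule and summed per library and class. Sums were tested in edgeR 4.0.16 (R 4.3.3; TMM, filterByExpr, quasi-likelihood test, Benjamini-Hochberg adjustment over all genes tested, threshold 0.05), with library as a term where classes were compared. DESeq2 1.42.0 was an alternative. SEs come from the edgeR fit. Tests were tried on simulated counts first. The null and heterozygous libraries, 1 each, were compared by ratios with exact 95% intervals over genes of 50 or more UMIs. Intervals cover counting error only. Thinned shares are the expected share at 500 UMIs per barcode, leaving out shallower ones.

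The members, the pathway list and the marker lists were chosen with earlier results of these data known. Named genes are the 6 members, pathway genes with 100 or more UMIs and the 8 genes most like the members' sum; Ciita and Rfxank, with fewer UMIs, were named after their counts were seen. The class II-high limit and its alternatives, thinning to 250 UMIs, the crossed pairing and the removal of mixed barcodes from the comparison with cells not known for class II were added after seeing the data. Other alternatives were 2 or 5 marker UMIs, a barcode filter (400 or more genes, under 10% mitochondrial UMIs), leaving out mixed microglial barcodes or the top 3, other scaling, no low-count filter and each library left out. Replicate numbers of metastasis and naive mark the sequencer in the labels; the differences between replicates correlated at -0.33 across genes in microglial and -0.35 in other barcodes.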

Additional observations from a re-analysis of the deposited data

How the results depend on the processing

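With 2 libraries in each group, metastasis against naive is limited by the spread between them, and metastasis 2 by its depth. In microglial barcodes the number of genes called by edgeR was 0 in the main analysis, 60 with no low-count filter, and 0 to 3 with each library left out. In other barcodes it was 0, against 1 with DESeq2, 49 with no low-count filter and 0 to 45 with each library left out. No member was called in any of these settings. A replicate block by sequencer gave 0 calls in both classes, and a crossed replicate block, tried after seeing the negative correlation, gave 1 call in microglial and 0 in other barcodes. The signs of several members turned. In microglial barcodes H2-Aa, H2-Ab1, H2-Eb1 and Cd74 were at 0.43, 0.32, 0.015 and 0.20 without mixed microglial barcodes and at 0.43, 0.35, 0.075 and 0.18 without class II-high barcodes, and Cd74 ranged from -1.47 to 0.17 with each library left out (0.17 without naive 2). In other barcodes H2-Aa, H2-DMa and Cd74 were at 0.33, 0.048 and 0.36 without class II-high barcodes. Between microglial and other barcodes 329 genes were called, against 137 at 2 marker UMIs, 174 with DESeq2 and 122 to 400 with each library left out, and 0 to 4 members in place of 3. H2-DMa was at -0.0035 without mixed microglial barcodes, and H2-DMb1 at -0.19 at 2 marker UMIs, -0.31 with the barcode filter, -0.28 without mixed microglial barcodes, -0.083 without the top 3 barcodes and -0.0016 to 0.099 with each library left out, the lowest without the heterozygous library. The difference in thinned share was -12.4 points at 5 marker UMIs and -7.56 at 2 (each exact permutation p = 0.0312), and 3.25 without thinning. For null against heterozygous microglial barcodes the summed log2 ratio was -0.57 at 5 marker UMIs, -0.67 with the barcode filter, 0.22 without mixed microglial barcodes, -0.30 without the top 3, 0.46 without class II-high barcodes and -0.38 centred on all genes. H2-Aa, H2-Ab1, H2-Eb1 and Cd74 turned to 0.040, 0.36, 0.071 and 0.22 without mixed and to 0.33, 0.55, 0.25 and 0.53 without class II-high barcodes, and H2-DMb1 to -0.010 at 5 marker UMIs. In other barcodes the sum was -0.25 at 5 marker UMIs, -0.66 with the barcode filter and 0.21 without class II-high barcodes. There H2-DMb1 was at -0.14 at 2 marker UMIs and -0.65 with the barcode filter, where H2-DMa was at -1.95, and H2-Ab1 and Cd74 were at 0.30 and 0.24 without class II-high barcodes. Beyond what fewer barcodes or libraries account for by construction, the cause was not tested.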
